A study of Mus musculus with 8 samples.

Results

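The comparison set the reads of the C57BL/6 (B6) allele against those of the castaneus (Cast) allele inside each wild-type (WT) embryonic stem cell (ESC) sample, for the autosomal genes. Members were the autosomal genes with at least 20 allelic reads, that is reads assigned to either allele, in each of the 2 WT samples taken at 0 hr. They numbered 9284 of the 24542 genes listed, and 313 of them lay on chromosome 16, which was kept apart because its reads were shifted toward Cast along its length. The remaining 8971 members are called the members outside chromosome 16. Of the members, 9101 were protein-coding in the annotation. For each gene and sample the d-score was calculated as the B6 reads divided by the sum of B6 and Cast reads, so that 0.5 means equal reads and 1 means B6 reads alone.

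In a hybrid cell both alleles of a gene meet the same transcription factors, so an unequal read count can mark a difference in cis. Such a difference may lie in the promoter, an enhancer, a splice site or the stability of the transcript that the allele encodes. Unequal numbers of DNA copies, or the way reads are assigned to alleles, can also give unequal counts. The B6 and Cast strains come from different subspecies of Mus musculus and differ at many positions, which is why so many reads can be assigned to an allele. Expression from 1 allele can also follow the parent of origin (imprinting) or be fixed at random in a cell and inherited by its daughters (random monoallelic expression). With 1 line from 1 cross, strain, parent of origin and the history of the line cannot be told apart.

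All samples came from TX1072, a female hybrid ESC line (Mus musculus castaneus x C57BL/6) in which doxycycline (DOX) can induce Xist from the B6 X chromosome. WT cells were sampled in 2 replicates without DOX (0 hr) and in 2 after 24 hr with DOX at 1 µg/ml, and the same was done for cells in which Hdac3 had been deleted (Hdac3KO), used here for values side by side. Per the methods the Hdac3KO cells are 2 separate clones, each grown from a single cell of the line, so their replicates may differ as clones do. The line and its derivatives were grown without feeder cells in serum, LIF and 2 kinase inhibitors, and all samples carry the inducible Xist. The 4 WT libraries held 6940375 to 12869134 counted reads, of which 30.3% to 31.6% were allelic. The median member had 151 to 175 allelic reads in a 0 hr sample and 90 to 127 in a 24 hr sample. The 10 ESC markers (among them Pou5f1, Sox2, Nanog and Esrrb) summed to 6343 to 6721 CPM (counts scaled to a common library total) in the WT samples. The 8 fibroblast markers summed to 45.1 to 63.7 CPM with Col3a1 and Postn at 0 in all 4, the 6 endoderm markers to 3.89 to 6.53 CPM, the 4 neural markers to 83.2 to 88.9 CPM and the 3 mesoderm markers to 24.6 to 68.4 CPM. Of the mesoderm markers T had 28.6 and 67.8 CPM at 0 hr and 23.7 and 49.7 CPM at 24 hr, higher in replicate 2 at both times, and its part in any allelic difference was not tested.

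For orientation, the 250 reference bases before the annotated start are given 5′ to 3′ for 7 members described below, 4 with more Cast reads (Strap, Cdkn1b, Ppp1r2 and Zfp42) and 3 with more B6 reads (Lncenc1, Trim71 and Gc). The letters are those of RefSeq for GRCm38.p6, which is the B6 genome, so the Cast letters at these places are not shown. Capitals mark CG dinucleotides, the sites of DNA methylation in mammals.
Strap: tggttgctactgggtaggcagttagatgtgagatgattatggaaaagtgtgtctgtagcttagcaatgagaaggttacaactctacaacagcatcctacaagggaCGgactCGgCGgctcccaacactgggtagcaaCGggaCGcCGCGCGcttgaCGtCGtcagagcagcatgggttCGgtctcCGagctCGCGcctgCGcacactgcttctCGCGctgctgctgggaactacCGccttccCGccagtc
Cdkn1b: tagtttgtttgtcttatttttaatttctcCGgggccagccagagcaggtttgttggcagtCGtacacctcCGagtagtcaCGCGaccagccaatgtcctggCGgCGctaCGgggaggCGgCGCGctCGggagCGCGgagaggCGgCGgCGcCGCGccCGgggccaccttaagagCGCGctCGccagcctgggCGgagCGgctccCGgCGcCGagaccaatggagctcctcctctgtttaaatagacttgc
Ppp1r2: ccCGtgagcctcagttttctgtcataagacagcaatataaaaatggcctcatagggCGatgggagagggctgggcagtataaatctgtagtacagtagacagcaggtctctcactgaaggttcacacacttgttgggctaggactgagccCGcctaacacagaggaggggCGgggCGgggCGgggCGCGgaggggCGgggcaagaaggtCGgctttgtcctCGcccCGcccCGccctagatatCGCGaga
Zfp42: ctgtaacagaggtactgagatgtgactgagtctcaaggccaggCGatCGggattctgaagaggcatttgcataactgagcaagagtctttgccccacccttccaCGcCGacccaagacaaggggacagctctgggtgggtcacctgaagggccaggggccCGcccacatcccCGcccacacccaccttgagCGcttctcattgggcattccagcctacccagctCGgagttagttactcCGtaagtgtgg
Lncenc1: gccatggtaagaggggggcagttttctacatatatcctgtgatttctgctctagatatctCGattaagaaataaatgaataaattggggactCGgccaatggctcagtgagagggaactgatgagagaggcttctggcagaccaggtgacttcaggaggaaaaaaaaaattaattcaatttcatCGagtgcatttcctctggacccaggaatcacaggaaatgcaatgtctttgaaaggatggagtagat
Trim71: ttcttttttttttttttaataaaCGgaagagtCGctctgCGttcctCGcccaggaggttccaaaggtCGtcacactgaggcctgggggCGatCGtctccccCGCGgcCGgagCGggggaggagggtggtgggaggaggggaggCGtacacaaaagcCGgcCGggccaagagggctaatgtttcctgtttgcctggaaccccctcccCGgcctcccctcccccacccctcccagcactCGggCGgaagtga
Gc: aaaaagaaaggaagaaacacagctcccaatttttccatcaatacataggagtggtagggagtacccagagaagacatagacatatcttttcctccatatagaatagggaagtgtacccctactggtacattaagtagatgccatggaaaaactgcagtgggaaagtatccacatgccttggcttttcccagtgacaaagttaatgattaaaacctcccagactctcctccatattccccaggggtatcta
On chromosome 6, the Strap window was chr6:137734832-137735081 and the Cdkn1b window chr6:134920151-134920400, both on the + strand. The Ppp1r2 window was chr16:31275278-31275527 and the Zfp42 window chr8:43307010-43307259, both on the - strand. The Lncenc1 window was chr13:97434720-97434969 (+), the Trim71 window chr9:114564370-114564619 (-) and the Gc window chr5:89457899-89458148 (-). CG dinucleotides numbered 28 for Cdkn1b, 19 for Strap, 17 for Trim71, 15 for Ppp1r2, 9 for Zfp42, 3 for Lncenc1 and 0 for Gc. Over the 27025 promoters of the same table and length the median was 6, with quartiles at 2 and 16. The letters TATAAA, on either strand, were found in Ppp1r2 and in none of the other 6 windows, and in 13% of all promoters. A comparison of promoter features between members with and without an allelic difference was void, because 79.3% of the members had a promoter in the table.

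The reads of most genes were close to evenly split, with a wide tail on both sides. Outside chromosome 16 the median d-score was 0.507 and 0.506 in the 2 samples at 0 hr, and 71.4% and 70.7% of members lay between 0.4 and 0.6. A gene was called when its B6:Cast ratio differed from 1 at an adjusted p under 0.05 in edgeR's quasi-likelihood test, with Benjamini-Hochberg adjustment over all 9619 genes tested. Among the 9284 members 1722 were called B6 higher and 1616 Cast higher, together 36.0% against a background of 35.9% over all genes tested (18.5% B6 higher and 17.4% Cast higher). Of these, 1208 had a ratio of at least 2 to 1 (background 13%), 577 toward B6 (background 6.19%) and 631 toward Cast (6.8%). Outside chromosome 16 the counts were 1714 B6 higher and 1356 Cast higher, with 571 and 481 at 2 to 1 or more, and 182 and 142 at 4 to 1 or more. The median size of the log2 ratio was 0.72 among the 3070 called members outside chromosome 16 and 0.30 over all 8971. DESeq2's Wald test on the same reads called 1549 members, all of them among the 3338 of edgeR.

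**Figure D1:**
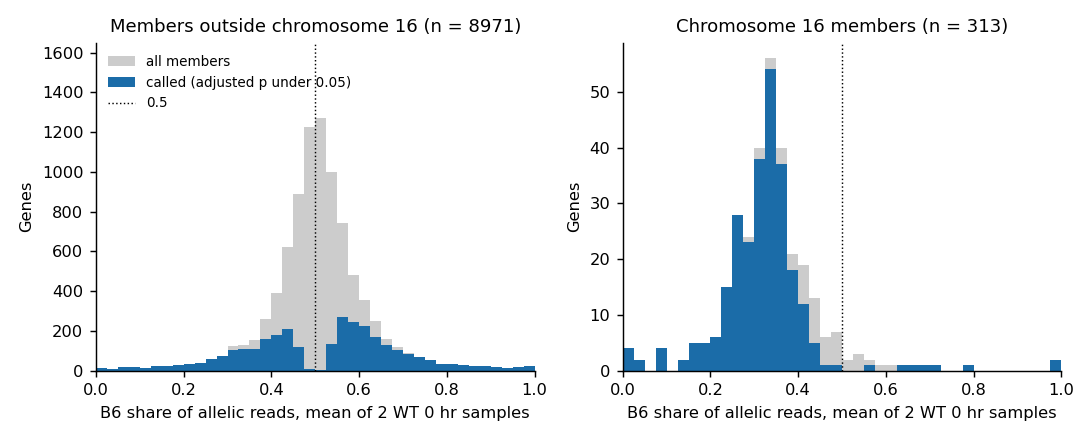
Histograms of the d-score (B6 share of allelic reads, mean of the 2 WT samples at 0 hr) for the members outside chromosome 16 (left) and on chromosome 16 (right), with called members in blue. Outside chromosome 16 the median sample d-scores were 0.507 and 0.506, and on chromosome 16 they were 0.341 and 0.331.

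Across chromosomes the median d-score was narrow. Apart from chromosome 16, chromosome medians ran from 0.488 (chromosome 4) to 0.521 (chromosome 8) in replicate 1 and from 0.483 (chromosome 13) to 0.523 (chromosome 8) in replicate 2. Chromosome 13 had the largest share of members called at 2 to 1 or more among these chromosomes, 18.5%, and chromosome 19 the smallest, 4.42%. On chromosome 4, 97 members were called B6 higher and 141 Cast higher, and on chromosome 8 136 and 58. In the Hdac3KO samples at 0 hr the median was 0.506 and 0.511 on chromosome 4 and 0.512 and 0.508 on chromosome 8. On chromosome 13 it was 0.485 and 0.479. The source of the differences from WT was not tested. Over members outside chromosome 16 the median log2 B6:Cast ratio was 0.04, with sample medians of 0.037 and 0.033. Whether the RNA reads were mapped with the strain differences masked is not given in the sources used here, and the part of mapping in this small shift was not tested.

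More reads gave more calls but smaller differences. Of the 2321 members with the fewest allelic reads (40 to 140 over both 0 hr samples) 24.8% were called, with a median log2 size of 1.52 among them. Of the 2321 deepest (778 to 95818 reads) 52.6% were called, with a median size of 0.44. Small imbalances were thus called mainly in deep genes. Of 156 genes just inside the limit of 20 reads (lower count 20 or 21) the median d-score was 0.490, with quartiles at 0.396 and 0.589. Just outside it (lower count 18 or 19) 176 genes had a median of 0.522 and quartiles at 0.410 and 0.623.

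The same direction was seen again after 24 hr. Of the 3338 called members, 3269 (97.9%) had their fitted ratio on the same side at 24 hr, and 2361 were also called there in the same direction, which is 70.7% of the calls at 0 hr and 80.4% of the 2937 calls at 24 hr (background at 24 hr 33.3%). Without replicate 1 of the 24 hr samples the 2361 fell to 1519. Of the 1208 members at 2 to 1 or more, 1196 kept the side and 998 were called again. At 24 hr the background at 2 to 1 or more was 6.04% B6 higher and 8.46% Cast higher (14.5% in all), and 15.7% and 17.6% were called in each direction at any size. Per sample and outside chromosome 16, the 1052 such members had their d-score on the same side of 0.5 in both 24 hr samples in 94.5% of cases, in both Hdac3KO samples at 0 hr in 94.0% and in both Hdac3KO samples at 24 hr in 94.3%. Among the 5901 members outside chromosome 16 that were not called, these shares were 43.7%, 46.1% and 44.6%. The Hdac3KO cells derive from the same hybrid line, so they are not an independent cross.

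**Figure D2:**
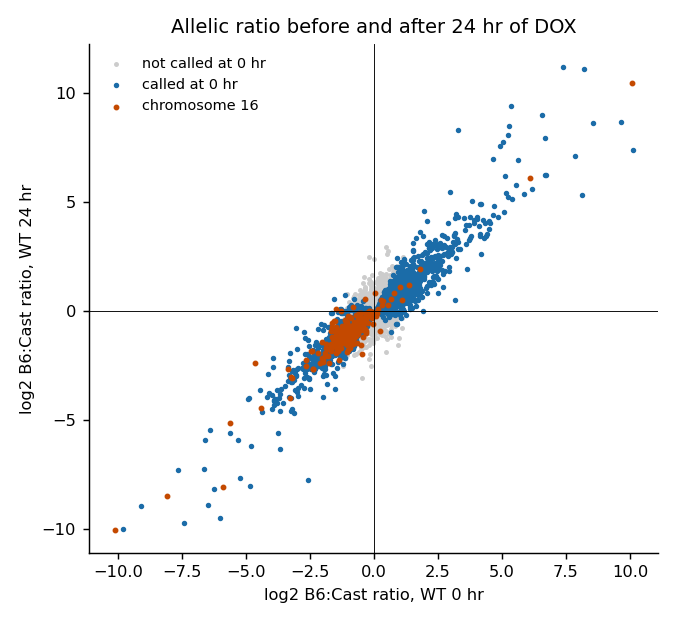
Fitted log2 B6:Cast ratio of each of the 9284 members at 0 hr (x axis) and 24 hr (y axis) in WT cells, with members called at 0 hr in blue and chromosome 16 members in orange. The points lie along the diagonal, and 97.9% of called members keep their side. Ratios beyond about 7 on either side rest on alleles with 0 to 3 reads.

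For 9 members the ratio itself changed between 0 and 24 hr (edgeR's quasi-likelihood test of the difference, adjusted p under 0.05). The background over all genes tested was 1.96%, or 189 genes, of which the others were not autosomal members. Of all genes tested 0.0624% changed toward B6 and 1.9% toward Cast, and at 2 to 1 or more 0.0208% and 1.61% (1.63% in all). In the members 395 had an unadjusted p under 0.05. Selenok, a selenoprotein of the endoplasmic reticulum, had d-scores of 0.637 and 0.587 at 0 hr and of 0.440 and 0.245 at 24 hr (log2 change -1.60 ± 0.42 SE, adjusted p = 0.0187). Bmp4, a secreted ligand of the TGF-beta family, had 0.0606 and 0.129 at 0 hr and 0.201 and 0.223 at 24 hr (log2 change 1.37 ± 0.38, adjusted p = 0.0394). Thus Bmp4 stayed on the Cast side in all 4 samples while Selenok crossed 0.5. DESeq2 called 0 such changes (25 at an unadjusted p under 0.05), and without replicate 2 of the 24 hr samples edgeR called 2.

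A small group of genes was read from 1 allele nearly alone. In both 0 hr samples 51 members had a d-score of at most 0.05 or at least 0.95, 19 on the Cast side and 32 on the B6 side. In all 4 WT samples this held for 44 members, 17 on the Cast side and 27 on the B6 side, and 29 met the same limits in all 8 samples. All 44 kept their side of 0.5 in the 4 Hdac3KO samples. Their allelic reads over both 0 hr samples ranged from 55 to 2642 with a median of 168.5, against 327 over all members. Intervals below are exact Clopper-Pearson 95% intervals on the pooled 0 hr reads. Limits for a count of 0, and the folds drawn from them, instead take 3 reads as the upper limit and are narrower than these intervals. Both cover counting error alone.

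The deepest gene of this group was Lncenc1, a long noncoding RNA of naive ESCs on chromosome 13 (97434970-97497007, mm10). It had 1388 B6 reads against 1 Cast read in replicate 1 and 1251 against 2 in replicate 2 at 0 hr, and 981 against 3 and 732 against 1 at 24 hr. Its d-scores were thus 0.997 to 0.999 in the WT samples (pooled 0 hr interval 0.997 to 1.00). In the Hdac3KO samples at 0 hr they were 0.995 and 0.999. Lncenc1, whose window is printed above, thus had at most 3 Cast reads in any WT sample.

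Strap, a WD-repeat protein that binds TGF-beta receptors and the SMN complex, was the deepest on the Cast side. It had 9 B6 reads against 483 Cast reads and 1 against 532 at 0 hr, giving d-scores of 0.0183 and 0.0019. At 24 hr the d-scores were 0.0183 and 0.0138. Its neighbour Dera, an aldolase that degrades deoxyribose phosphate, had 0 B6 reads in all 4 WT samples against 142, 130, 119 and 86 Cast reads. By the 3-read limit a count of 0 of 272 reads at 0 hr allows a B6 share of up to 1.10%, or at least 90.7-fold more from the Cast allele. The exact interval for Dera reaches a B6 share of 0.0135. Ppp1r2, an inhibitor of protein phosphatase 1, had 0 B6 reads against 198, 139, 114 and 93 Cast reads, by the same limit at least 112-fold higher from Cast at 0 hr. The calls of Dera and Ppp1r2 were lost with DESeq2. H2afj, a histone H2A variant, had 1 B6 read in each 0 hr sample against 119 and 110 Cast reads. Clec4a1, a C-type lectin receptor, had 1 and 0 B6 reads against 114 and 107 Cast reads. On the Cast side the 5 deepest genes thus never exceeded a d-score of 0.0183 in a WT sample, and 3 of them (H2afj, Strap and Dera) lay within a single stretch of chromosome 6.

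On the B6 side, Clca3b, a calcium-activated chloride channel regulator, had 331 and 349 B6 reads against 1 Cast read each at 0 hr. Nefm, the medium neurofilament subunit, had 253 and 301 against 1 and 2. Fsd1l, a fibronectin and SPRY domain protein, had d-scores of 0.971 and 0.952, and Irak3, an inhibitory kinase of Toll-like receptor signalling, of 0.98 and 0.987. Neither Clca3b nor Nefm had a Cast read at 24 hr. The gene for the vitamin D binding protein, Gc, had 139 and 189 B6 reads and 0 Cast reads at 0 hr, which makes it at least 109-fold higher from B6, and a single Cast read at 24 hr. In all, 10 members had no read of 1 allele at 0 hr. Some genes of this kind have close copies whose reads may be shared (Clca3b, Gm8909 of the MHC class I family, the processed pseudogenes Rpl32l, Npm3-ps1 and Hist1h2al), so their d-scores are uncertain.

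In the Hdac3KO samples 9 of the 44 genes had a share of the weaker allele above 0.1 in at least 1 sample. The largest such share at 0 hr was that of AI427809, a long intergenic RNA with WT d-scores of 0.971 to 1.00 and Hdac3KO d-scores of 0.696 and 0.952. For Aox3, an aldehyde oxidase with WT d-scores of 0.969 to 1.00, they were 0.741 and 0.9. The test of Hdac3KO against WT at 0 hr in the fit of all 8 samples gave adjusted p = 0.493 for AI427809 and 0.133 for Aox3, so neither difference passed.

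**Figure D3:**
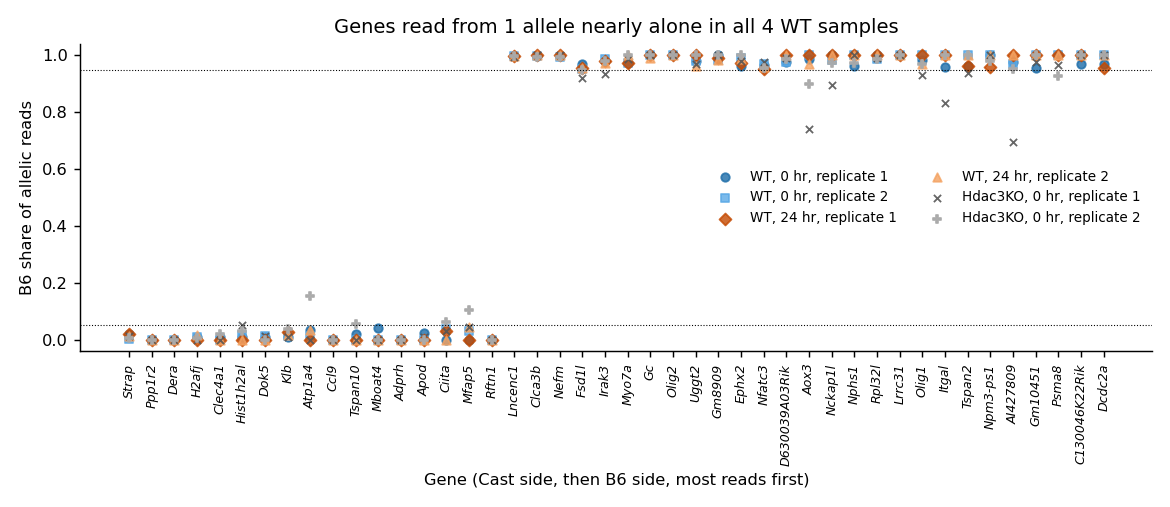
d-score (B6 share of allelic reads) of the 44 members with at most 0.05 or at least 0.95 in all 4 WT samples (filled symbols), with the 2 Hdac3KO samples at 0 hr as crosses and pluses; dotted lines mark 0.05 and 0.95. The 17 genes at the left are read from Cast and the 27 at the right from B6, and the symbols between the lines are Hdac3KO samples, with AI427809 lowest at 0.696.

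The other genes among the 12 largest ratios on each side, taken over called protein-coding members outside chromosome 16 with at least 100 allelic reads per 0 hr sample, were the following. On the Cast side, Naa11, an N-terminal acetyltransferase subunit, had d-scores of 0.0513 and 0.0726 at 0 hr and of 0.0481 and 0.0653 at 24 hr (log2 ratio at 0 hr -3.91 ± 0.16 SE, edgeR adjusted p = 3.92e-28). Cd276, the immune checkpoint ligand B7-H3, had 0.0757 and 0.0514 at 0 hr and 0.0687 and 0.0413 at 24 hr (-3.86 ± 0.16, adjusted p = 8.94e-29). Both were stable over the 4 samples. Tub (0.0745 and 0.0381), Thsd4 (0.0682 and 0.0656), Gprc5a (0.0682 and 0.0763), Tspan9 (0.0467 and 0.130), Optn (0.0857 and 0.0900) and Bmp4 completed the Cast side, with log2 ratios from -3.95 to -3.27. Optn encodes the autophagy receptor optineurin and Gprc5a an orphan receptor induced by retinoic acid.

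On the B6 side, Myo7a, the unconventional myosin of sensory hair cells, had d-scores of 0.972 and 0.973 at 0 hr and 0.975 and 1.00 at 24 hr. Uggt2, an enzyme of glycoprotein folding control, had 0.979 and 0.981, and Ephx2, the soluble epoxide hydrolase, 0.962 and 0.990. Myo7a, Uggt2 and Ephx2 also belong to the 44 near-exclusive genes. Slightly lower were Ubb, a polyubiquitin gene, with 0.948 and 0.921 (log2 3.88 ± 0.25, adjusted p = 4.42e-20), the glutamate receptor gene Grik3 with 0.948 and 0.911 (3.79 ± 0.21, adjusted p = 2.34e-22) and Pkhd1, which encodes fibrocystin, with 0.929 and 0.919 (3.60 ± 0.27, adjusted p = 7.26e-17). All 24 genes of these ends kept their side in both 24 hr samples, which the rule that named them required. Nefm and Grik3 are best known from neurons, Myo7a from sensory epithelium and Gc from liver.

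At the other extreme of depth, the called genes with the most reads had small ratios. Rmrp, the RNA of the RNase MRP complex, had 95818 allelic reads at 0 hr and d-scores of 0.471 and 0.459, Hsp90ab1, a cytosolic chaperone, 0.472 and 0.463, and Ftl1, the ferritin light chain, 0.451 and 0.456. Npm1 (nucleophosmin) had 0.544 and 0.537, Eef2 (the translocation factor of translation) 0.537 and 0.535, and Tfcp2l1, a naive pluripotency factor, 0.535 and 0.527. These differences of a few percent exceeded the spread between the 2 WT samples at 0 hr. In the Hdac3KO samples at 0 hr Rmrp had 0.505 and 0.490. Rpph1, the RNA of RNase P, stood apart with 0.160 and 0.178 (log2 -2.30 ± 0.04, adjusted p = 5.73e-49), as did the ribosomal gene Rps26 with 0.634 and 0.630. Fn1 had 0.485 and 0.491 (adjusted p = 0.0313), and its call was lost with DESeq2, with all 8 samples in the fit and without either 0 hr replicate. The call of Rplp0 (0.512 and 0.523) was lost with DESeq2 and without replicate 2.

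Genes with the same direction lay side by side in places. Of 175 neighbouring pairs of members outside chromosome 16 that were both called at 2 to 1 or more, 130 had the same allele higher and 45 opposite alleles. The running median of the log2 ratio over 11 neighbouring members passed 0.6 in size at 35 separate stretches, a rule chosen after the values were seen. Each stretch was then trimmed so that members called in its direction outnumbered the others by the most. Its ends and its counts of called members thus follow partly from the calls. The genes named in them below were also chosen after the values were seen, so no test is given for a stretch as a whole. The one with the most members was on distal chromosome 6 (134715468-137857340), 3.14 Mb from Dusp16 to Dera. Of its 17 members 15 were called Cast higher, 1 B6 higher and 1 was not called, and the median d-score of the 17 was 0.192 and 0.159 at 0 hr, 0.118 and 0.150 at 24 hr, and 0.137 and 0.132 in the Hdac3KO samples at 0 hr.

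Within this stretch Atf7ip, a partner of the histone methyltransferase SETDB1, had d-scores of 0.0932 and 0.0991 over 3362 reads (log2 -3.24 ± 0.07, adjusted p = 9.24e-41). Cdkn1b, the cell cycle inhibitor p27 whose window is printed above, had 0.05 and 0.143 over 115 reads. Hist4h4, a histone H4 gene, had 0.167 and 0.168, the splicing factor gene Wbp11 0.204 and 0.205, the RNA helicase gene Ddx47 0.219 and 0.209, and Eps8, an actin regulator, 0.204 and 0.159. Strap and Dera at its distal end had nearly no B6 reads (above). The exceptions were Hebp1, a heme-binding protein, with 0.554 and 0.561 (adjusted p = 0.407), and Arhgdib with 0.661 and 0.619 (log2 0.85 ± 0.17, adjusted p = 6.85e-05). Hebp1 and Arhgdib lay between genes with the opposite balance. The members just outside were nearer to balance, which the trimming favours. They had d-scores of 0.539 and 0.529 for Lrp6 before the stretch and 0.479 and 0.53 for Plekha5 after it.

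**Figure D4:**
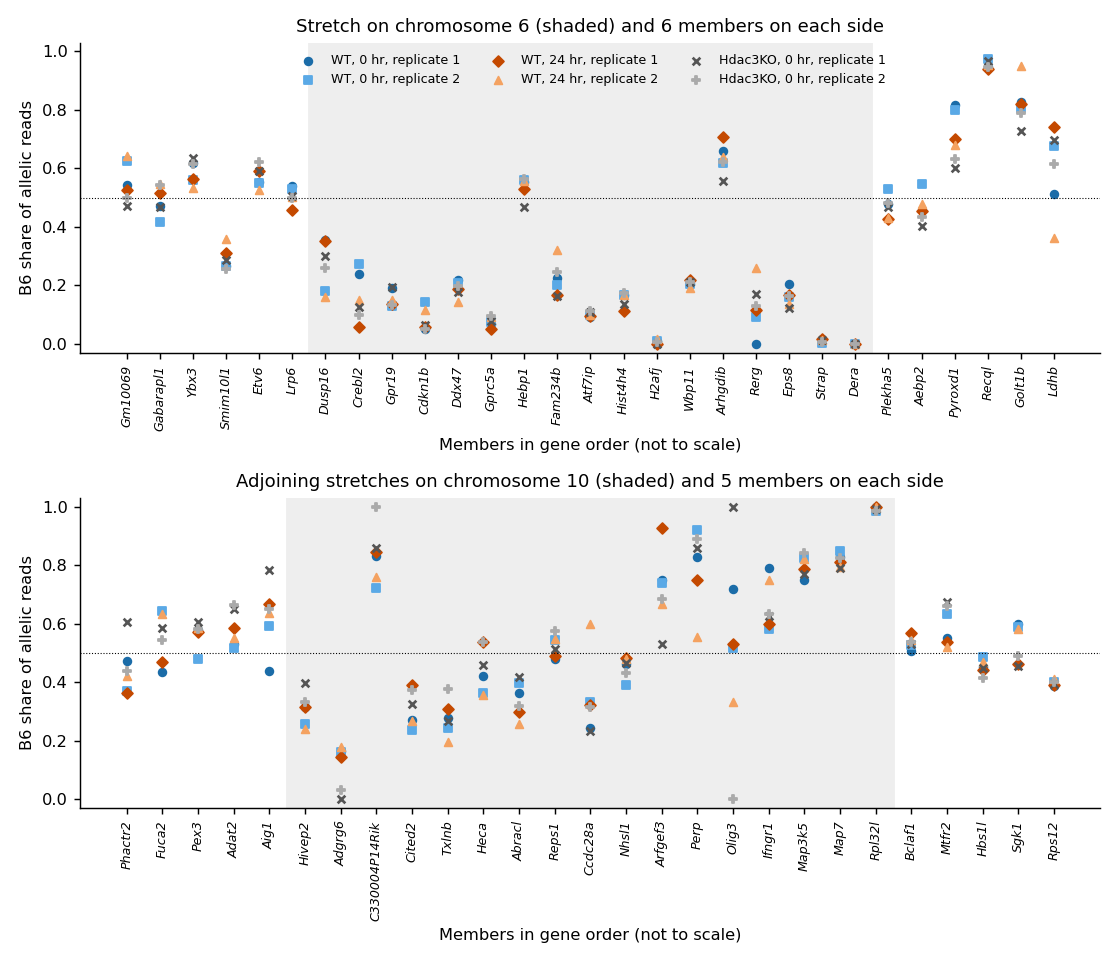
d-score (B6 share of allelic reads) by sample for members in gene order along chromosome 6 (top) and chromosome 10 (bottom), with the stretches shaded and the dotted line at 0.5; symbols are the 4 WT samples and the 2 Hdac3KO samples at 0 hr. On chromosome 6, 15 of the 17 shaded members lie below 0.5 in all samples shown, and on chromosome 10 a Cast-higher stretch gives way to a B6-higher one between Nhsl1 and Arfgef3.

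On chromosome 10 stretches of opposite direction adjoined. From Hivep2 to Nhsl1 (13966075-18533892) 8 of 10 members were called Cast higher, among them Cited2, a CBP and p300 binding transactivator, with d-scores of 0.269 and 0.238, and Adgrg6, an adhesion receptor, with 0.165 and 0.163. From Arfgef3 to Rpl32l (18581839-20281590) 6 of 7 were called B6 higher, among them Map3k5, a stress kinase, with 0.748 and 0.825 and Map7, a microtubule binding protein, with 0.827 and 0.850. Rpl32l lies inside Map7. Olig3, in the second stretch, had 0.72 and 0.517 and was not called.

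Further stretches lay on chromosomes 5, 7 and 17, with median log2 ratios of 1.1, 1.51 and -1.34 at 0 hr. On distal chromosome 6 that median was -2.29. Some shorter stretches had larger medians, such as Aplp1 to Nphs1os on chromosome 7 (4 members, 4.65). On chromosome 5 (86804221-90224001) all 9 members from Ythdc1 to Cox18 were called B6 higher, with a median d-score of 0.629 and 0.686, ending in Slc4a4 (0.885 and 0.773), Gc (1.00 and 1.00) and Cox18 (0.746 and 0.766). On chromosome 7 a gene-dense stretch of 0.143 Mb (127191660-127335138) held 8 called B6 higher of 9, with Sept1, a septin, at 0.819 and 0.829 and the zinc finger gene Zfp553 at 0.816 and 0.835. The ends of Sept1 and Zfp553 overlap on opposite strands. On chromosome 17 (49992257-55712628) 8 of 10 members were called Cast higher, with Rab5a, a GTPase of early endosomes, at 0.100 and 0.160 and Pot1b, a telomere binding protein, at 0.162 and 0.186. Rftn1, the first of them, had 60 Cast reads and 0 B6 reads at 0 hr.

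A stretch on chromosome 6 (122317731-122934619) covered the Gdf3, Dppa3 and Nanog cluster of pluripotency genes. Of its 11 members 8 were called Cast higher and 1, the glucose transporter gene Slc2a3, B6 higher with 0.649 and 0.651. Dppa3, a maternal factor that protects DNA methylation marks, had d-scores of 0.169 and 0.189 (log2 -2.20 ± 0.09, adjusted p = 5.91e-28). By contrast Nanog, the pluripotency transcription factor next to it, had 0.484 and 0.484 (-0.09 ± 0.04, adjusted p = 0.0338), and Gdf3, a TGF-beta family ligand, 0.448 and 0.456. The genes of the cluster thus differed widely in size, although 8 shared the direction.

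Chromosome 16 was shifted toward Cast along its whole length. Its median d-score was 0.341 and 0.331 at 0 hr and 0.3333 and 0.3296 at 24 hr, close to 1 B6 read for every 2 Cast reads. Against a ratio of 1, 260 of its 313 members were called Cast higher and 8 B6 higher. In the Hdac3KO samples at 0 hr the median was 0.332 in replicate 1 and 0.5 in replicate 2. The number of DNA copies was not measured in these files. Each member was therefore also tested against the median of the chromosome, which gave 56 B6 higher and 61 Cast higher, 37.4% of 313 against a background of 34.1% in that fit. At 2 to 1 or more from that median there were 38, or 12.1% (background 11.7%, of which 6.29% B6 higher and 5.46% Cast higher). The backgrounds of each direction at any size were 18.9% and 15.2%.

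Some chromosome 16 genes went against the shift. Olig2, a transcription factor of oligodendrocyte precursors (91225457-91228677), had 188 and 131 B6 reads and 0 Cast reads at 0 hr, and 185 and 101 against 0 at 24 hr. By the 3-read limit it was at least 106-fold higher from B6 at 0 hr, though its call was lost with DESeq2. Its neighbour Olig1 had 62 and 26 B6 reads against 1 and 0 Cast reads. Lrrc15, a leucine-rich repeat membrane protein, had d-scores of 0.790 and 0.761 (log2 above the chromosome median 2.78, adjusted p = 2.75e-17), Itgb5, an integrin subunit, 0.631 and 0.717 (2.01, adjusted p = 7.56e-17) and Mpv17l 0.672 and 0.697 (2.08, adjusted p = 1.56e-11). These 5 were above 0.5 in all 4 WT samples.

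On the opposite side, Ppp1r2 and its neighbour Apod (1 and 0 B6 reads against 40 and 37) were read from Cast, as were Adprh (0 of 49 and 0 of 32) and Ciita, the MHC class II transactivator (0 of 39 and 1 of 26). Bdh1, a ketone body dehydrogenase near them, had 0.0406 and 0.0463 (log2 below the chromosome median -3.46, adjusted p = 5.33e-22). Hspbap1 (0.106 and 0.0757) and Xxylt1 (0.116 and 0.0699) followed at -2.30 and -2.28. In Hdac3KO replicate 2, whose chromosome median was 0.5, Ppp1r2 and Adprh still had a d-score of 0 and Olig2 of 1.00, and Bdh1 had 0.0476. Hspbap1 had 0.175 and Xxylt1 0.156 in that sample, both above their WT values at 0 hr. A d-score of 0 or 1 is at the end of its scale, so these genes could not have moved further.

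**Figure D5:**
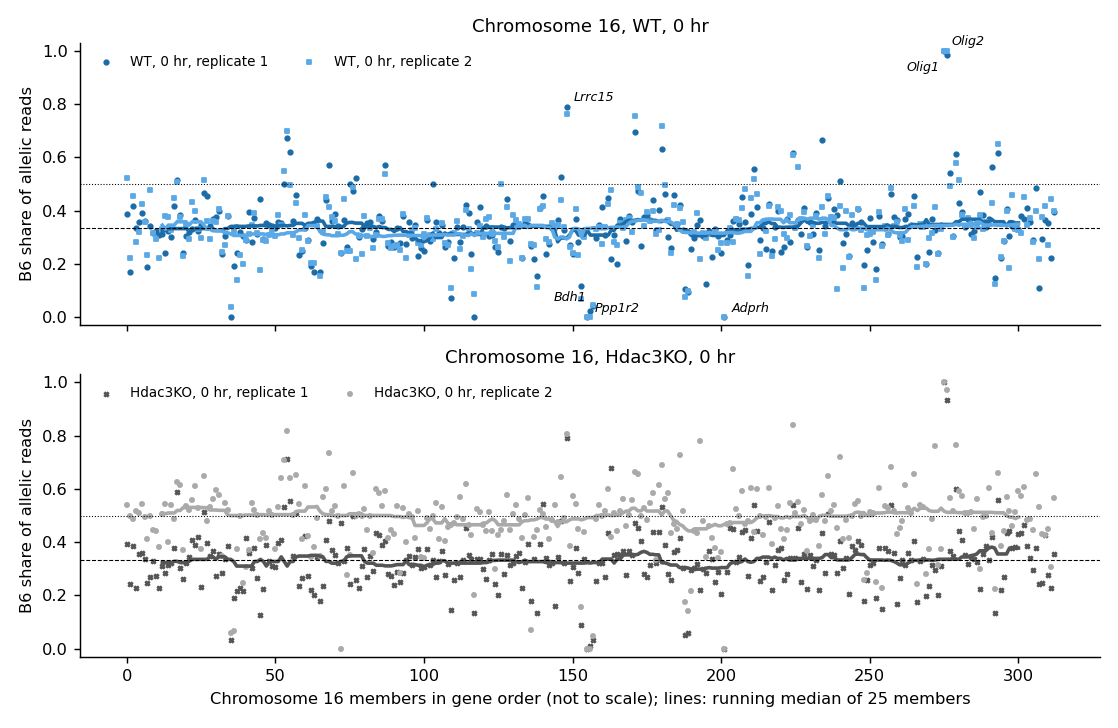
d-score (B6 share of allelic reads) of the 313 chromosome 16 members in gene order, in the 2 WT samples (top) and the 2 Hdac3KO samples (bottom) at 0 hr. Lines are running medians over 25 members, the dotted line is 0.5 and the dashed line is 1 in 3; the medians are 0.341 and 0.331 in WT and 0.332 and 0.5 in Hdac3KO, and Olig1 and Olig2 lie at the top in WT.

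Gene lists were compared by their counts, with the share called over all members (36.0%, and 13% at 2 to 1 or more) beside them. Of 39 naive pluripotency genes 13 were called B6 higher and 17 Cast higher (76.9%), and 8 reached 2 to 1, 3 of them on chromosome 16. The median member of this list had 2856 reads against 327 over all members, and calls rose with reads. Zfp42, the zinc finger marker of naive ESCs also known as Rex1, had d-scores of 0.162 and 0.167 at 0 hr and 0.170 and 0.176 at 24 hr (log2 -2.35 ± 0.07, adjusted p = 2.43e-35). Prdm14, a regulator of naive pluripotency and germ cells, had 0.183 and 0.172, then 0.182 and 0.178 (-2.21 ± 0.08, adjusted p = 1.80e-30). With Dppa3, these genes were read about 4 to 1 or more from Cast.

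Toward B6, the list held Tcl1, an Akt cofactor, with 0.779 and 0.775 (log2 1.80 ± 0.17) and Trim71, an RNA binding E3 ligase, with 0.726 and 0.709 (1.35 ± 0.05). The core factor genes were nearer to balance. Sox2 had 0.594 and 0.629 (0.65 ± 0.07), Esrrb 0.543 and 0.527 (0.20 ± 0.05) and Klf4 0.446 and 0.488 (-0.19 ± 0.06), all called. On chromosome 16 Morc1 had 0.250 and 0.228, 0.69 below the chromosome median on the log2 scale (adjusted p = 1.12e-13), while its near neighbour Dppa2 had 0.423 and 0.418, 0.52 above that median (adjusted p = 1.44e-09).

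Among 57 chromatin and DNA methylation regulators 6 were called B6 higher and 14 Cast higher (35.1%, against 36.0% over all members), and 2 reached 2 to 1, Rnf2 (the catalytic subunit of PRC1) with 0.718 and 0.618 and Ezh1 (a PRC2 methyltransferase) with 0.685 and 0.704. Dnmt3a, a de novo DNA methyltransferase, had 0.319 and 0.407 (log2 -0.86 ± 0.16), and its call was lost without replicate 1. Crebbp, on chromosome 16, had 0.362 and 0.359. The median size of the log2 ratio in this list was 0.19 against 0.31 over all members, at a median of 1198 reads against 327, and sizes fell with reads.

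Respiratory chain and ATP synthase genes had the same small median, 0.19. Of 64 members 10 were called B6 higher and 8 Cast higher, and 2 reached 2 to 1, Atp5j2 with 0.349 and 0.300 and Atp5o, on chromosome 16, with 0.314 and 0.345. Sdha, the flavoprotein of complex II, had 0.594 and 0.618 and Atp5c1 0.610 and 0.586. Of 74 cytosolic ribosomal protein genes 21 were called B6 higher, 21 Cast higher and 11 reached 2 to 1, among them Rpl37 with 0.828 and 0.807, Rps2 with 0.281 and 0.292 and Rps23 with 0.192 and 0.105. Ribosomal protein genes have many processed copies in the genome whose reads the counting could share, so these d-scores are uncertain. The median member of the ribosomal list had 2958 reads against 327 over all members, and calls rose with reads.

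Of 63 glutathione and xenobiotic metabolism members 16 were called B6 higher and 19 Cast higher, and 18 (28.6%) reached 2 to 1. Besides Ephx2 these included Cyp2b23, a cytochrome P450, with 0.883 and 0.979, Abcc3, a drug exporter, with 0.00 and 0.0698, and Gstz1, a glutathione transferase, with 0.176 and 0.139. Glutathione transferase and cytochrome P450 genes lie in families of close copies, so sharing of reads cannot be told apart from allelic difference for them. Of 27 interferon and innate immunity members 4 were called B6 higher and 9 Cast higher, and 7 reached 2 to 1. Oas1a, a sensor of double-stranded RNA, had 0.158 and 0.299, Parp14 on chromosome 16 0.0942 and 0.0976, Ddx58 (the RNA sensor RIG-I) 0.767 and 0.692, and Gbp9, a guanylate binding protein, 0.923 and 1.00 over 46 reads. Of 11 MHC class I and antigen processing members 4 were called B6 higher and 2 Cast higher. H2-K1 had 1.00 and 0.955 over 44 reads and H2-M5 0.722 and 0.677. The MHC class II genes of the list, H2-DMa (0.130 and 0.150 over 43 reads) and H2-Eb1 (0.311 and 0.259), were on the Cast side.

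Of 264 zinc finger genes named Zfp 43 were called B6 higher and 26 Cast higher, and 23 (8.71%) reached 2 to 1. Zfp979 had 0.122 and 0.0814 and Zfp78 0.846 and 0.714, the latter over 60 reads and not called without replicate 1 or with DESeq2. Of 235 predicted genes named Gm or Rik or with a pseudogene suffix, 58 were called B6 higher and 36 Cast higher, and 57 (24.3%) reached 2 to 1, with Pisd-ps1 at 0.0627 and 0.0614 and 9630028I04Rik at 0.0824 and 0.176. None of the 5 clustered protocadherin genes tested was called; their median was 60 reads.

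Imprinted genes were neither all skewed nor read from 1 allele alone. Of 16 genes with maternal expression 3 were called, all Cast higher and all from 1 cluster on chromosome 12, with Meg3 at 0.252 and 0.349, Rian at 0.260 and 0.338 and Mirg at 0.323 and 0.281. Of 20 with paternal expression 7 were called B6 higher and 4 Cast higher, from Usp29 (0.824 and 0.640 over 59 reads, a call lost with DESeq2 and without replicate 1) and Sfmbt2 (0.752 and 0.730) to Impact (0.3471 and 0.3328) and Inpp5f (0.242 and 0.193). None of the 44 genes read from 1 allele nearly alone belonged to either list. At 44 of 9284 members, few or none would be found in lists of 16 and 20 in any case.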

How the data were processed

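RNA-seq was made from TX1072 ESCs with rRNA depletion and paired-end reads. Per the labels and methods, the authors removed rRNA reads, mapped the rest to mm10 with TopHat2 2.1.0, used bedtools, and counted strand-specific reads per gene with featureCounts 1.5.1. The deposited tables hold, per sample, read counts of the B6 allele, of the Cast allele and in all, and the authors' allelic fraction (B6 over both, from 10 reads), which was recalculated here. How RNA reads were assigned to alleles is not given in the sources used here.

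Symbols were placed with GENCODE M21 (23884) or RefSeq (573); 85 had no position. edgeR 4.0.16's quasi-likelihood test (R 4.3.3) was fitted to the B6 and Cast counts of the 4 WT samples, with a term per sample and a B6 term per time, both alleles of a sample sharing its library size, and adjusted over 9619 genes. On simulated reads it recovered 97 of 100 genes changed by 2 on the log2 scale and 78 of 100 changed by 1, with 4.89% false calls. Between replicates the chi-square per degree of freedom was 1.41 at 0 hr and 1.26 at 24 hr for the B6 share, and 4.91 and 3.07 for total counts. The study calls its replicates biological duplicates. Those of WT are of 1 line, so p-values concern the spread between samples of that line. For each gene that spread was mostly drawn from all genes (52.26 prior against 2 residual degrees of freedom). Genes whose replicates differ widely can thus still have a small p-value. Members and lists were chosen with earlier results of these data known. Of the members that changed between 0 and 24 hr, 1 is counted but not reported here. Named genes were the 12 highest and 12 lowest ratios among called protein-coding members outside chromosome 16 with 100 reads per 0 hr sample and the same side at 24 hr, the 5 deepest near-exclusive genes a side, the 2 highest and 2 lowest called of each list, the 4 highest and 4 lowest on chromosome 16 and the 5 deepest called a side. Alternatives were DESeq2 1.42.0, limma 3.58.1, other scalings, read limits, sample sets, a replicate block and left-out replicates.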

Additional observations from a re-analysis of the deposited data

Results flagged for a closer look

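Effects that differed between groups by a test of the difference itself were as follows. Between 0 and 24 hr in WT cells (edgeR's quasi-likelihood test, adjusted p under 0.05) the log2 B6:Cast ratio moved by -1.60 for Selenok, -0.91 for Snx10, -0.83 for Robo1 on chromosome 16 and -0.83 for Polrmt. It moved toward B6 by 1.37 for Bmp4, 0.91 for Man2a2, 0.82 for Atxn7l3b and 0.18 for Mybl2, whose adjusted p was 0.0498. Mybl2 was the deepest of them, with 13160 allelic reads at 0 hr. Selenok and Polrmt were called B6 higher at 0 hr and Cast higher at 24 hr.

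Between Hdac3KO and WT at 0 hr (all 8 samples in the fit) 4 of the 83 members named by rule differed, as did others named above, such as Snx10 (adjusted p = 0.0238) and Mybl2 (0.0301). The log2 ratio was 1.68 higher in Hdac3KO for Naa11 (d-scores of 0.186 and 0.163 against 0.0513 and 0.0726, adjusted p = 0.0022) and 0.90 higher for Prdm14 (0.280 and 0.295 against 0.183 and 0.172, adjusted p = 0.000658). It was 0.19 higher for Rmrp (adjusted p = 0.0213) and -0.93, toward Cast, for Sfmbt2 (adjusted p = 0.0317). Rmrp lies on chromosome 4, whose median d-score at 0 hr was 0.488 and 0.49 in WT and 0.506 and 0.511 in Hdac3KO. The part of that chromosome-wide difference in the value of Rmrp was not tested. Naa11 and Prdm14 stayed on the Cast side in both genotypes. The share of all genes tested that differed is not given, so 4 of 83 has no background beside it. Most of the 83 were picked for high or low WT ratios at 0 hr, which favours shifts toward equal reads. Naa11, Prdm14 and Sfmbt2 moved that way. So did Rmrp, named for its read depth, with 0.471 and 0.459 in WT and 0.505 and 0.490 in Hdac3KO at 0 hr. WT d-scores at 24 hr were 0.0481 and 0.0653 for Naa11, 0.182 and 0.178 for Prdm14, and 0.663 and 0.726 for Sfmbt2. Snx10 and Mybl2 were named for a change from the same 0 hr samples. The part of the choice of genes was not tested.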

How the results depend on the processing

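No named gene changed direction in 747 refits of the 83, of which 732 kept the call and 15, in 9 genes, lost it (Fn1, Rplp0, Dera, Zfp78, Usp29, Dnmt3a, Ppp1r2, Olig2 and H2-Eb1). The balance of calls did turn, from B6 to Cast as the more frequent side, with DESeq2 (758 of 1549 B6 higher) and TMM. The number of called members was 1549 with DESeq2 and 2303 to 2468 without 1 of the 0 hr replicates. Without 1 of them, 1109 to 1134 were at 2 to 1 or more and 90 to 93 chromosome 16 members were called against its median. Calls repeated at 24 hr numbered 1519 to 1815 without 1 of the 24 hr replicates. The 9 changes from 0 to 24 hr became 20 with the replicate block, 0 with DESeq2 and 2 to 13 without 1 replicate. Members read from 1 allele nearly alone at 0 hr numbered 26 at limits of 0.02 and 0.98, 105 at 0.1 and 0.9, and 29 with at least 50 reads. The median log2 ratio outside chromosome 16 (0.0399) was 0.0361 with at least 50 reads, 0.0126 for summed reads, and 0.0325 to 0.0373 in single replicates. It was 0.0175 with TMM factors per allele column, with 1604 of 3281 called members B6 higher against 1722 of 3338. The causes were not tested. Same-numbered replicates share only a number (correlation of their deviations 0.0557), and the replicate block called 3465 members, 3321 of them among the 3338. Protein-coding members alone and separate fits by time were alternatives chosen after seeing the data (3250 called members and 2357 repeated calls). Depth limits calls of small differences in the 2321 shallowest members.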
